A study of Mus musculus with 15 samples.

Results

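Hdac1 was deleted in mouse embryonic fibroblasts in which Hdac2 was already knocked down, and 3 arrays of these cells were set against 3 arrays of knockdown cells that kept Hdac1. The comparison used 6 of the 15 arrays of the series, chosen by their sample titles, and covered all 13382 genes that could be tested. The cells are primary male fibroblasts with floxed Hdac1 alleles that carry 2 retroviruses. The first expresses Cre-ERT2, a recombinase that acts only when tamoxifen is present, and the second expresses a hairpin micro-RNA, which the titles call siRNA. In KO/Kd cells the hairpin targeted Hdac2 and tamoxifen at 200 nM induced deletion of Hdac1. Kd cells carried the same hairpin and received ethanol. Values of the remaining groups were set beside these: KO cells (floxed Hdac1, scrambled hairpin, tamoxifen), Hdac1 +/+ cells with tamoxifen, and control cells (floxed Hdac1, scrambled hairpin, ethanol), 3 arrays each. For the +/+ cells the labels name neither virus. Within the comparison of KO/Kd with Kd cells, and that of KO with control cells, tamoxifen and the loss of Hdac1 cannot be told apart. Whether the arrays within a group stem from different cultures is not said in the labels, so the p-values reflect array-to-array spread that may be technical.

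HDAC1 and HDAC2 are paralogous deacetylases that act on acetylated histone tails. Both sit in the Sin3, NuRD and CoREST corepressor complexes, where either one can serve as the catalytic subunit. Fibroblasts that lose both enzymes are known to stop dividing, and the CDK inhibitor p21, encoded by Cdkn1a, is a textbook target of HDAC1. Comparing deletion in knockdown cells with deletion in cells that keep HDAC2 asks what remains of HDAC1 function once its partner is low.

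The targeted genes followed their labels. Hdac1 had intensities of 106, 158 and 203 in KO/Kd cells, against 3841, 3757 and 3966 in Kd cells (log2 fold change -4.54 ± 0.15 SE, adjusted p = 3.405e-13). Hdac2 was at 1030, 1013 and 1031 in KO/Kd cells, against 1028, 940 and 908 in Kd cells (0.10 ± 0.07, adjusted p = 0.27), and at a mean of 7051 in control. The KO/Kd and Kd cells thus carried a like remnant of Hdac2 signal, while Hdac1 signal did not overlap between them. Of the other class I deacetylases, Hdac8 was higher by 0.43 and Hdac3 by 0.21 (adjusted p = 0.0016 and 0.017). Both of these small calls ended under quantile normalization (0.14, adjusted p = 0.222, and 0.04, adjusted p = 0.524), and that of Hdac3 also without KO/Kd replicate 3 or Kd replicate 3. Of the 3 tested genes on each side of Hdac1 on chromosome 4, Marcksl1 (0.97) and Bsdc1 (0.81) were higher and Tmem234 (-0.30) lower, while Zbtb8a, Eif3i and Iqcc did not pass.

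Most of the tested genes differed between KO/Kd and Kd cells, which differ in tamoxifen as well as in Hdac1. By limma, 8469 of 13382 genes (63.3%) passed an adjusted p of 0.05, 5736 of them higher (42.9%) and 2733 lower (20.4%) in KO/Kd than in Kd cells. At 2-fold or more, 1419 genes (10.6%) were higher and 536 (4.01%) lower, and at 4-fold or more 355 and 132. In comparison, 3235 genes (24.2%) passed for deletion with tamoxifen in cells with normal Hdac2 (KO minus control, no shared arrays). Of these, 99 changed by 2-fold or more upwards and 21 downwards. In +/+ cells with tamoxifen, set against the same control arrays, 3808 genes (28.5%) passed, 175 by 2-fold or more upwards and 103 downwards. The direct test of the difference between both deletions, the interaction, passed for 5738 genes (42.9%). KO/Kd arrays were also brighter, with medians of 29.1 to 30.7 against 24.8 to 25.7 on Kd arrays, and the median log2 fold change over all genes was 0.13. Quantile normalization gave 4188 higher and 4368 lower genes, with a median over all genes of -0.02, and centring each array on its median gave 4327 and 4202, so the excess of higher genes was found on the deposited scale and not under these. The part of array brightness in single results was not tested, other than by these scalings. On the first principal component, which held 71.0% of the variance, the KO/Kd arrays lay between -75.0 and -69.5 and the 12 other arrays between 6.58 and 28.2.

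Genes that differed between KO and control cells mostly differed in the same direction between KO/Kd and Kd cells. Tamoxifen goes with the loss of Hdac1 in both comparisons, so the part of tamoxifen in this overlap was not tested. Of the 355 genes at least 4-fold higher in KO/Kd cells, 141 were also higher in +/+ cells with tamoxifen than in control, against 21.5% of all genes. Of the genes higher in KO than in control cells, 77.9% were also higher in KO/Kd than in Kd cells, against 42.9% of all genes, and of those lower, 72.6% were lower, against 20.4%. Seen from the other side, these shared genes were 35.5% of the genes higher and 16.5% of those lower in KO/Kd cells. Of the 2036 genes higher in both comparisons 1136 passed the interaction, and of the 451 lower in both 322 did. Opposite calls were made for 153 genes that were lower in KO/Kd but higher in KO cells and for 91 genes the other way round. Across genes, which are not independent replicates, the log2 fold changes of both comparisons had a Pearson correlation of 0.528. Among 120 genes changed by 2-fold or more in KO cells, 96 passed in the same direction in KO/Kd cells and 80 had the larger change there. The plot of both contrasts shows this as a cloud far steeper than the line of equal change.

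**Figure D1:**
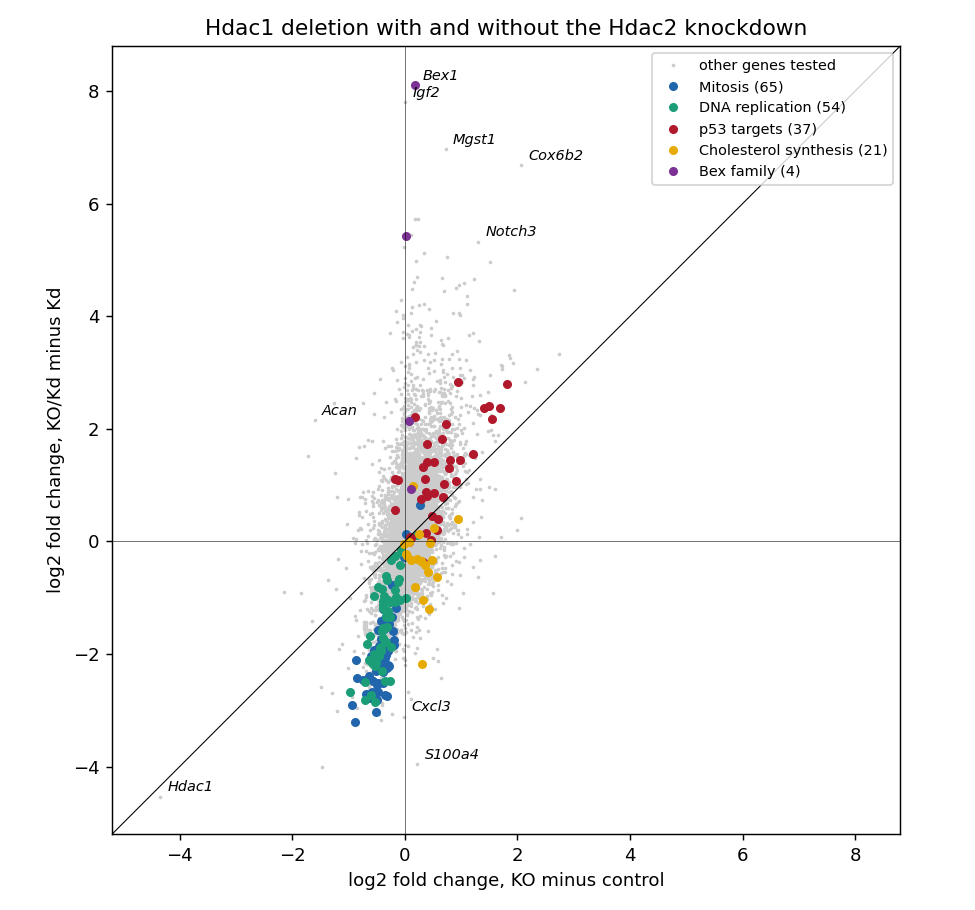
Log2 fold change of each of 13382 genes in KO/Kd minus Kd (vertical axis) against KO minus control (horizontal axis), with 5 gene lists in colour and the line of equal change in black. Hdac1 lies on the line (-4.54 and -4.34), Bex1 (8.10 and 0.19) and Igf2 (7.80 and 0.00) at the top, and cholesterol genes right of 0 on the horizontal axis but mostly below 0 on the vertical one.

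Genes of mitosis fell nearly as a block. Of 65 tested members 63 fell and 1 rose, against 20.4% and 42.9% of all genes, with a median log2 fold change of -2.13 and a range of -3.21 to 0.65. In KO cells 28 fell and 1 rose (median -0.43), against 4.64% and 19.5% of all genes lower and higher, and the interaction passed downwards for 63, against 17.1%. The polo kinase gene Plk1, needed for mitotic entry and spindle assembly, was at 289, 475 and 254 in KO/Kd cells, against 2406, 2411 and 2283 in Kd cells (-2.79 ± 0.16). Aurka, the kinase of centrosome maturation, was at 244, 421 and 241 in KO/Kd cells, against 2129, 2038 and 1990 in Kd cells (-2.75). No KO/Kd array reached a Kd array for either kinase; of all genes, 22.2% had every KO/Kd array below every Kd array and 48.7% every one above. The largest fall in the list was that of Ska1 (-3.21), a subunit of the complex that holds kinetochores to microtubules, followed by the condensin gene Ncapg (-3.02), the kinetochore gene Spc24 (-2.91), the chromosomal passenger gene Cdca8 (-2.81) and the checkpoint kinase gene Ttk (-2.74). Foxm1, a transcription factor that drives late cell cycle genes, fell by 2.70 and the cyclin gene Ccna2 by 2.12. The exceptions, named after their values were seen, were the securin gene Pttg1, which rose by 0.65, and Ckap2 (0.13, adjusted p = 0.295).

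Genes of DNA replication fell with them. Of 54 tested members 51 fell and 0 rose (median -1.29), where 20.4% of all genes fell, and in KO cells 36 and 0 (median -0.36), where 4.64% fell. Every one of 11 genes of helicase activation and of 20 genes of polymerases and the sliding clamp fell. The helicase subunit gene Mcm5 was at 2659, 4040 and 2416 in KO/Kd cells, against 15471, 14303 and 14125 in Kd cells (-2.30 ± 0.14). Mcm10 (-2.85), the thymidine kinase gene Tk1 (-2.81) and the helicase activation gene Cdc45 (-2.72) fell most among those named. The polymerase gene Pole (-2.49), the checkpoint mediator gene Clspn (-2.49) and the licensing factor gene Cdc6 (-2.48) followed. Orc4, Orc5 and Tyms did not pass, the last at intensities of 24.5 to 31.2 in KO/Kd cells, against 33.5 to 35.2 in Kd cells. Of 28 genes of DNA damage and recombination, 23 fell and 1 rose (median -1.56), again beside 20.4% and 42.9% of all genes. Fancb of the Fanconi anaemia core complex (-3.02), the recombination gene Rad54l (-2.63) and the checkpoint kinase gene Chek1 (-2.28) fell, Trp53bp1, which directs breaks towards end joining, rose by 0.74, and Atm was at -0.16 (adjusted p = 0.171). These 3 lists held 59 of the 132 genes that fell by 4-fold or more.

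Promoters of the genes that fell most are shown because mitotic genes are known to share CCAAT boxes with a CHR element (TTTGAA, or the variant TTCGAA), bound by the DREAM and MuvB complexes, and replication genes E2F sites (TTTCGCG or TTTGGCG). Sequences are from RefSeq (GRCm38.p6), read 5′ to 3′ on the gene's strand, from 150 bases before to 30 after the annotated start. Capitals mark CCAAT boxes and CHR elements in Cdca8 (chr4:124936888-124937067, minus strand), Ttk (chr9:83834539-83834718, plus strand) and Hmmr (chr11:40733408-40733587, minus strand), which encodes a spindle protein and fell by 2.72. In Clspn (chr4:126556830-126557009, plus strand) and Mcm5 (chr8:75109359-75109538, plus strand) they mark the E2F letters.
Cdca8: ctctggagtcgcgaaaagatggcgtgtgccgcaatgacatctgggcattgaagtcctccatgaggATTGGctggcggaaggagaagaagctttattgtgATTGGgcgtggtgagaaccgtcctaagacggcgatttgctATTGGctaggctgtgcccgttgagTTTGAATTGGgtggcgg
Ttk: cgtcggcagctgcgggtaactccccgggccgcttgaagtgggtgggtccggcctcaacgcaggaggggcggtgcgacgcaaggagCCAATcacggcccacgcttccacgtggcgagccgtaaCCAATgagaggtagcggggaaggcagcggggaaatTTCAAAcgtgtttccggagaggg
Hmmr: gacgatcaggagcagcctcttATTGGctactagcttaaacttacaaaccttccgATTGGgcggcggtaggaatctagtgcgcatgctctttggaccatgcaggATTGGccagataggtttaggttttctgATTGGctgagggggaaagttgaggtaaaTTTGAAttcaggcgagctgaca
Clspn: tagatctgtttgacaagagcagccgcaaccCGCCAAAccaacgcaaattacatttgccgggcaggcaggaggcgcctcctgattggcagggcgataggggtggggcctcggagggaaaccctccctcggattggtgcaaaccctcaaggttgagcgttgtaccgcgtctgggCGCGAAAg
Mcm5: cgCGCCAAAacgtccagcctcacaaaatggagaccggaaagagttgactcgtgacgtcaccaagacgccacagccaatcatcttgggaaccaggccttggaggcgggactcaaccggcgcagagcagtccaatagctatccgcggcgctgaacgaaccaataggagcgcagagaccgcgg

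Both strands were searched over 250 bases before to 50 after each start, and in Cdca8 one CCAAT box overlaps the CHR letters. The 5 promoters belong to the most lowered mitosis and replication genes with these letters in the printed stretch. More lowered genes without them were passed over, and genes on chromosome 18 were left out. A CHR in either form stood in 77.4% of the 53 mitosis promoters found, against 16.6% of 10734 promoters of tested genes. A CCAAT box together with a CHR stood in 64.2%, against 6.74%. Of 45 replication promoters, 33.3% held E2F letters in either form, against 4.66% of all tested, and 22.2% held a CHR. A match describes letters in a window and not a bound site.

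The falls of proliferation genes were not equal on the 3 KO/Kd arrays. On KO/Kd replicates 1, 2 and 3 the median of the mitosis list relative to the mean of Kd arrays was -2.33, -1.59 and -2.42, and that of the replication list -1.40, -1.10 and -1.42. Of the 3 arrays, replicate 2 was the highest for 53 of 54 replication genes (98.1%), against 52.4% of all genes tested. The cell proliferation marker Mki67 was at 1127, 2244 and 751 in KO/Kd cells, against 6543, 6318 and 6916 in Kd cells. Replicate 2 thus kept the most signal of these genes, yet every KO/Kd array lay below every Kd array for Mki67. Hdac1 was at 106, 158 and 203 on the same arrays, and the part of this spread in the results was not tested. The lists of lysosome genes (0.94, 0.92 and 0.97) and p53 targets (0.97, 1.19 and 1.10) differed less between the same 3 arrays.

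**Figure D2:**
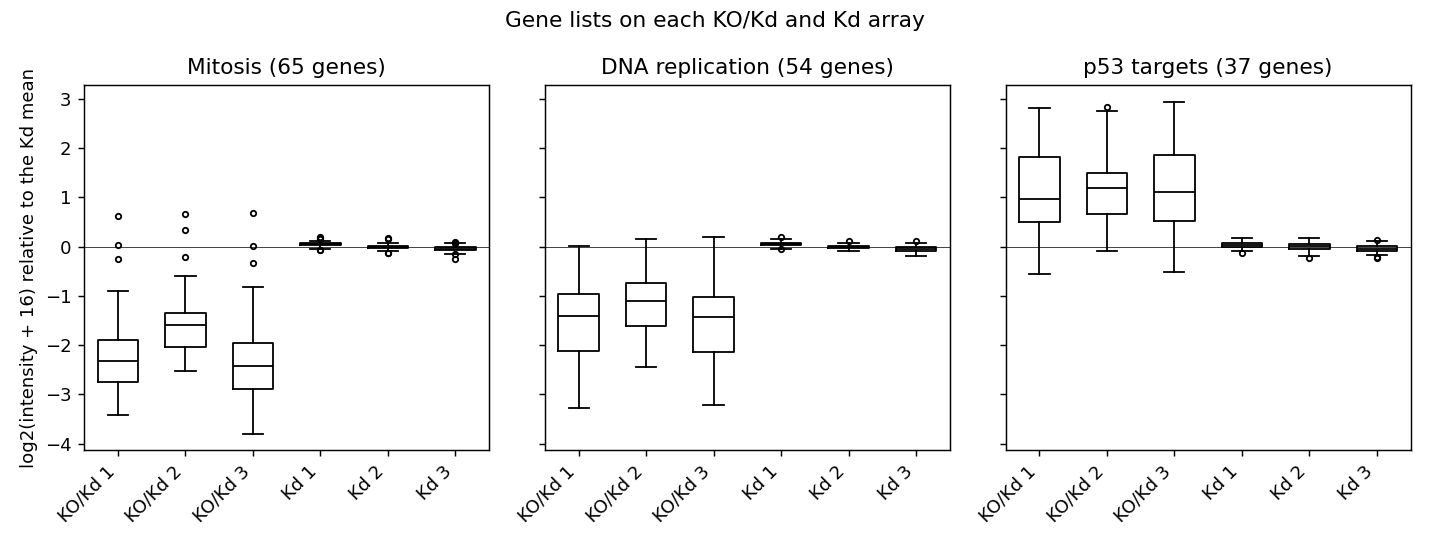
Log2(intensity + 16) of each gene of 3 lists relative to its mean on Kd arrays, for each KO/Kd and Kd array (boxes: quartiles and median; whiskers: up to 1.5 times the box; circles: genes beyond). The mitosis boxes of KO/Kd arrays lie below 0 with medians from -2.42 to -1.59, replicate 2 being the least lowered, while Kd arrays stay near 0.

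All 3 genes of the Cip and Kip family of CDK inhibitors rose. Cdkn1a, which encodes p21, was at 11557, 11974 and 12487 in KO/Kd cells, against 2708, 2625 and 2603 in Kd cells (2.17 ± 0.08, adjusted p = 1.82e-12). In KO cells it averaged 8308, against 2811 in control (1.55), and the interaction passed at 0.62. Cdkn1c, which encodes p57, was at 2663, 3069 and 2950 in KO/Kd cells, against 243, 231 and 252 in Kd cells (3.49 ± 0.13). In KO cells it was at 0.20 (adjusted p = 0.2925), but in +/+ cells with tamoxifen it was 1.47 above control. Cdkn1b, which encodes p27, rose by 0.32, a call that ended under quantile normalization (0.12, adjusted p = 0.13) and with a gene's probe sets averaged (0.20, adjusted p = 0.156). Among the INK4 inhibitors of CDK4 and CDK6, Cdkn2b rose by 2.80 and Cdkn2d by 0.43. Cdkn2a, which encodes p16 and Arf, was at 51.3, 41.9 and 278 in KO/Kd cells, against 47.1, 35.2 and 36.3 in Kd cells (0.92, adjusted p = 0.0762). Only replicate 3 stood clear of the Kd arrays for this gene, and the value was 0.17 without it. Cdkn2c did not pass (-0.18, adjusted p = 0.0678); it passed under quantile normalization (-0.34).

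G1 regulators changed in both directions. The D cyclin genes, which respond to growth factors, were higher, Ccnd2 by 0.99, Ccnd3 by 0.98 and Ccnd1 by 0.73. With its probe sets averaged Ccnd3 was at 0.37. Of the E cyclins, Ccne1 was higher by 0.37 (0.18 under quantile normalization) and Ccne2 lower (-1.87). Cdk4 (-0.47) and Cdk2 (-0.27) were lower and Cdk6 did not pass. The call of Cdk2 ended without KO/Kd replicate 3 (-0.18) or Kd replicate 1 (-0.22). Of the pocket proteins that hold E2F factors in check, Rbl2 (1.76) and Rb1 (1.69) rose, and Rbl1 was at 160, 186 and 156 in KO/Kd cells, against 1452, 1346 and 1277 in Kd cells (-2.91 ± 0.07). The repressor E2F genes E2f7 (-2.55) and E2f8 (-2.13), themselves cell cycle genes, fell, as did E2f1 (-0.51), Tfdp1 (-0.54) and E2f4 (-0.45). Tfdp2 (0.77), E2f5 (0.53) and E2f6 (0.33, and 0.17 under quantile normalization) rose, and E2f2 and E2f3 did not pass.

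Target genes of p53 rose in KO/Kd cells. Of 37 tested, 30 rose and 1 fell, against 42.9% and 20.4% of all genes, with a median of 1.10. In KO cells 28 rose and 0 fell (median 0.52), where 19.5% and 4.64% of all genes did. The interaction passed upwards for 25, against 25.7% of all genes. Mdm2, which encodes the ligase that degrades p53, was at 4987, 5204 and 5014 in KO/Kd cells, against 1004, 927 and 964 in Kd cells (2.37 ± 0.07). The death gene Pmaip1 (2.80), the membrane protein gene Perp (2.83), Trp53inp1 (2.41), the receptor genes Eda2r (2.37) and Fas (2.09) and the RNA-binding protein gene Zmat3 (1.82) were among the largest rises. The single fall was in Gtse1 (-0.36), itself expressed in G2, and its call ended in 5 alternatives. Plk2 was at 0.08 (adjusted p = 0.319). In +/+ cells with tamoxifen 6 of the 37 were higher and 5 lower than in control, against 21.5% and 6.93% of all genes. Perp was 1.90 lower in those +/+ cells (log2 fold change -1.90), opposite to its value in KO/Kd cells.

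**Figure D3:**
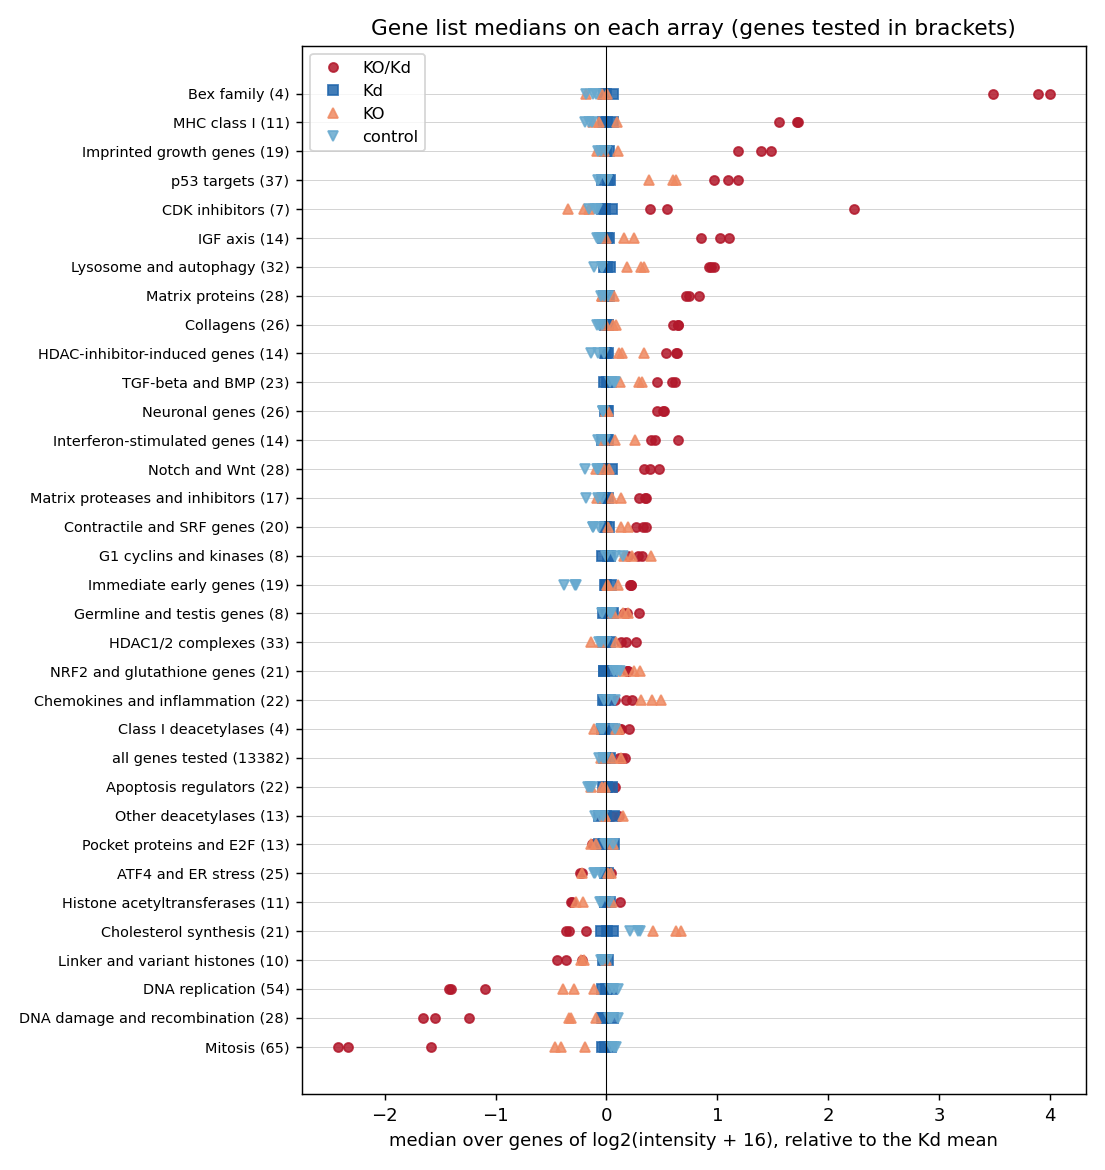
Median log2(intensity + 16) of each gene list on each array relative to the mean of Kd arrays, for KO/Kd, Kd, KO and control arrays. The mitosis, damage and replication lists lie below -1 on all KO/Kd arrays and p53 targets above or near 1, with KO arrays between KO/Kd and Kd arrays in these lists.

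Many of the largest rises were in genes of low intensity in Kd cells. Of the 355 genes at least 4-fold higher, 193 (54.4%) had intensities of at most 100 on all Kd arrays, against 33.0% of all tested genes. The limit of 100 lies above the medians of Kd arrays over all probe sets (24.8 to 25.7). A gene dim in Kd cells could pass the filter through its level in KO/Kd cells and then had to differ, so these shares test nothing. Bex1, of a family of small X-linked proteins studied mainly in neurons, was at 19669, 13581 and 19218 in KO/Kd cells, against 41.1, 49.4 and 50.3 in Kd cells (8.10 ± 0.16, adjusted p = 7.74e-16). It averaged 26.8 in KO and 21.2 in control cells. Bex2 was at 1772, 1672 and 1746 in KO/Kd cells, against 25.7, 23.0 and 24.6 in Kd cells (5.43), and Bex4 (2.15) and Bex3 (0.94) also rose. No Bex gene passed in KO cells. Cox6b2, a subunit of respiratory complex IV used in testis, was at 7743, 8030 and 8239 in KO/Kd cells, against 67.4, 53.4 and 65.9 in Kd cells (6.68), and had risen in part in KO cells, at a mean of 350 against 70.2 in control (2.07). Further large rises were those of the plasma glutathione peroxidase gene Gpx3 (5.73), the hyaluronan-binding protein gene Itih5 (5.72), Clca3a2 (5.45), the receptor gene Notch3 (5.32), the collagen gene Col14a1 (5.23), the protease gene Prss12 (5.12), Syt17 (5.05), Rgcc (4.98), the TAM receptor ligand gene Gas6 (4.96) and Gprasp2 (4.70). Notch3 (1.30) and Gas6 (1.52) also rose in KO cells.

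Igf2 was part of this group. Of 14 genes of the IGF axis 12 rose and 1 fell, where 42.9% and 20.4% of all genes did, and Igf2 rose most. In KO cells 5 were higher and 0 lower, where 19.5% and 4.64% of all genes were. In +/+ cells with tamoxifen 4 were higher and 3 lower, where 21.5% and 6.93% were. Igf2, an imprinted fetal growth factor gene, was at 21069, 17009 and 19176 in KO/Kd cells, against 75.3, 73.8 and 59.9 in Kd cells (7.80 ± 0.18). Its value in KO cells was 0.00 (adjusted p = 0.994), and +/+ cells with tamoxifen were 3.33 above control. All 7 ligand and receptor genes of the IGF axis rose, among them Igf1 (3.90), whose arrays ranged from 384 to 1239 in KO/Kd cells, against 24.8 to 44.7 in Kd cells, as well as Igf2r (1.76), Insr (0.99) and Igf1r (0.95). Of the binding protein genes, Igfbp5 (2.05) and Igfbp4 (1.79) rose and Igfbp6 fell (-1.26). Imprinted genes of the growth network had 14 of 19 higher and 1 lower (median 1.39), where 42.9% and 20.4% of all genes were. In KO cells 4 were higher and 3 lower (median 0.01), where 19.5% and 4.64% of all genes were. In +/+ cells with tamoxifen 11 were higher and 1 lower (median 0.22), where 21.5% and 6.93% were. Both are relative to the same control arrays. Among the imprinted genes higher in KO/Kd cells were Dcn, which encodes decorin (3.67), Dlk1 (2.88) and Peg3 (2.75). Sgce (-0.35), named after its value was seen, was the lower one and Grb10 did not pass. Without probe sets marked as shared between transcripts, Dlk1 was at 0.84 and Igfbp5 at 0.29. Microsomal Mgst1 was at 4545, 4480 and 4385 in KO/Kd cells, against 22.9, 20.3 and 16.7 in Kd cells (6.97), and was 3.94 above control in +/+ cells with tamoxifen. Cells of that group differ from control in more than tamoxifen, so the part of tamoxifen in Igf2, Mgst1 and Cdkn1c was not tested.

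**Figure D4:**
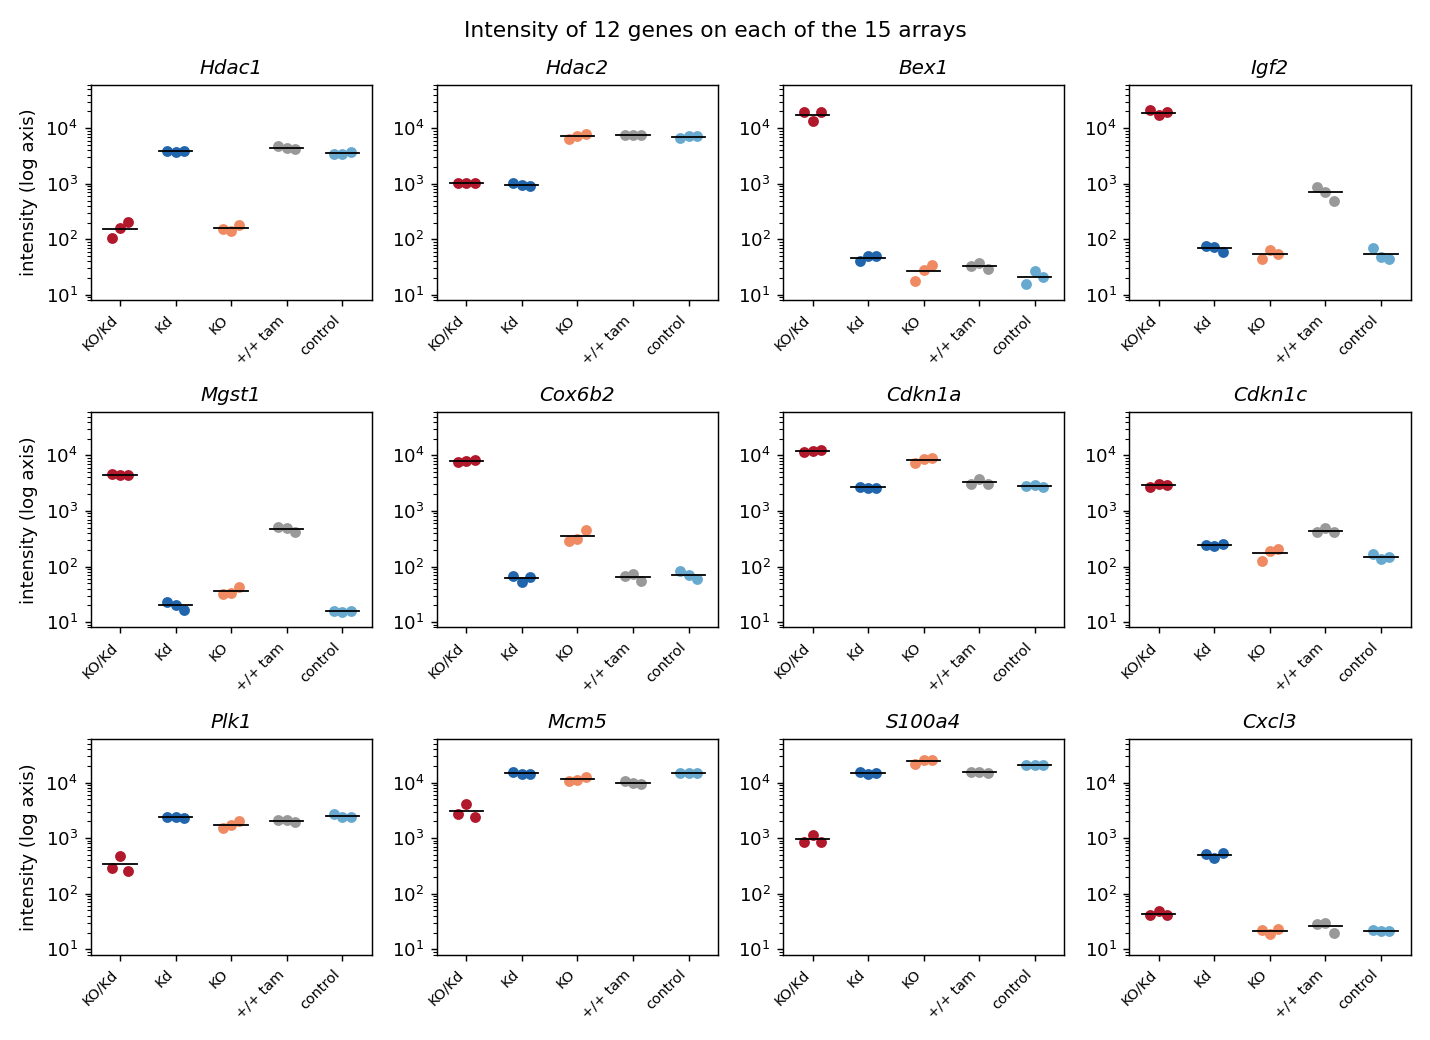
Intensity on a log axis of 12 genes on each array (points) with the group mean (bar), for KO/Kd, Kd, KO, +/+ with tamoxifen (+/+ tam) and control. Hdac1 is low in KO/Kd and KO arrays, Bex1 and Igf2 reach 13581 or more on every KO/Kd array, and Cxcl3 is high in Kd arrays alone.

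Outside the cell cycle, the genes that fell most after Hdac1 were Rtl3 (-4.01), of retrotransposon origin, and S100a4 (-3.96). S100a4, a calcium-binding protein gene used as a fibroblast marker, was at 849, 1156 and 839 in KO/Kd cells, against 15444, 14343 and 14684 in Kd cells, and did not pass in KO cells (0.22, adjusted p = 0.132). Its interaction, -4.18, was the lowest of all genes named. The neutrophil chemokine gene Cxcl3 was at 41.8, 48.0 and 40.9 in KO/Kd cells, against 528, 433 and 540 in Kd cells (-3.11). KO and control cells averaged 21.5 and 21.6, so the higher level was found in Kd cells, not in control. The pattern of Lmcd1 was similar, at 66.7, 31.6 and 74.5 in KO/Kd cells, against 460, 477 and 382 in Kd cells (-2.68), with 74.4 in KO and 71.6 in control. Ifi202b (-3.06), the proteoglycan gene Aspn (-3.02), Styk1 (-2.79) and the muscle actin gene Acta1 (-2.43) fell as well, as did the proliferation-linked Lrr1 (-3.16), Cdca2 (-3.06) and Pimreg (-2.99) and the acyltransferase gene Mboat1 (-2.96).

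Lysosome and autophagy genes rose together. Of 32 tested, 31 rose and 0 fell (median 0.93), where 42.9% of all genes rose, and the interaction passed upwards for 27, where 25.7% did. In KO cells 25 rose and 0 fell (median 0.37), where 19.5% and 4.64% of all genes did. In +/+ cells with tamoxifen 17 were higher than control and 0 lower, where 21.5% and 6.93% of all genes were. The sialidase gene Neu1 was at 1000, 859 and 900 in KO/Kd cells, against 133, 135 and 60.5 in Kd cells (2.96 ± 0.19). The protease genes Ctsf (2.67) and Ctsd (1.75) and the acid glucosidase gene Gaa (2.06) followed, with the autophagosome genes Gabarapl1 (1.25) and Map1lc3b (1.10). Tfe3, a regulator of lysosome genes, did not pass (0.08, adjusted p = 0.463).

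MHC class I genes had 9 of 11 higher and 1 lower (median 1.67), where 42.9% and 20.4% of all genes were. In KO cells 4 were higher and 0 lower, where 19.5% and 4.64% of all genes were. In +/+ cells with tamoxifen 9 were higher and 0 lower (median 0.50), where 21.5% and 6.93% of all genes were. The immunoproteasome gene Psmb8 was at 981, 1165 and 878 in KO/Kd cells, against 79.1, 68.3 and 76.3 in Kd cells (3.49). Tap1, which carries peptides into the endoplasmic reticulum, rose by 3.02, the heavy chain genes H2-D1 and H2-K1 by 2.18 and 2.03 and their activator gene Nlrc5 by 2.14. The lower one, named after its value was seen, was the peptide-trimming gene Erap1 (-0.96). Of 14 interferon-stimulated genes 9 rose and 3 fell, the lower ones being Gbp2 (-0.96), Ifit2 (-0.73) and Ifih1 (-0.45; -0.23 without Kd replicate 3, adjusted p = 0.192). Usp18 (2.11) and Bst2 (1.98) led the rises.

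Matrix genes mostly rose. Of 28 matrix protein genes 23 rose and 3 fell (median 0.74), and of 26 collagen genes 20 and 3 (median 0.67), where 42.9% and 20.4% of all genes did. After quantile normalization 6 collagen genes fell. In +/+ cells with tamoxifen 16 matrix protein genes were higher than control and 5 lower, and 5 and 7 collagen genes. Of all genes 21.5% were higher and 6.93% lower there. The microfibril gene Mfap2 was at 1282, 1308 and 1363 in KO/Kd cells, against 165, 148 and 145 in Kd cells (2.98). The cartilage proteoglycan gene Acan rose by 2.16 here but was lower in KO than in control cells (-1.60), which gave an interaction of 3.76. The falls were those of Aspn, Omd (-2.70) and Prelp (-0.33) among matrix proteins and of Col6a2 (-0.69), Col6a1 (-0.48) and Col1a1 (-0.28) among collagens. Col1a1, the main fibrillar collagen gene of fibroblasts, was at 0.01 when its probe sets were averaged. With that rule the values of many other genes moved towards 0 as dim probe sets entered; Igf2 was at 4.60, Col14a1 at 2.96, Ska1 at -1.27 and Mcm10 at -1.13.

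Cholesterol synthesis genes fell in KO/Kd cells and rose in KO cells. Of 21 tested, 14 fell and 3 rose in KO/Kd cells, where 20.4% and 42.9% of all genes did. In KO cells 11 were higher and 0 lower, where 19.5% and 4.64% of all genes were. In +/+ cells with tamoxifen 15 were higher and 0 lower, where 21.5% and 6.93% were, both relative to the same control arrays. The interaction passed downwards for 13 and upwards for 1, where 17.1% and 25.7% of all genes passed. Lanosterol synthase gene Lss was at 144, 329 and 283 in KO/Kd cells, against 1204, 1166 and 1029 in Kd cells (-2.17), although it was at -0.33 without shared probe sets. Idi1 (-1.19) and Fdft1 (-1.05), both higher in KO cells (0.43 and 0.32), fell as well, and Scap, the sterol sensor gene, Tm7sf2 and Hsd17b7 were the higher ones (0.99, 0.40 and 0.24), of which only the first kept its call under quantile normalization. Of 14 ATF4 targets of the amino acid response 11 fell and 1, Sesn2, rose (median -0.89), beside the same 20.4% and 42.9%. In KO cells 2 fell and 2 rose, where 4.64% and 19.5% of all genes did. The pseudokinase gene Trib3 fell by 2.12, the cystine carrier gene Slc7a11 by 1.83 and Asns, which encodes asparagine synthetase, by 1.00. Of 11 genes of the unfolded protein response 7 rose, where 42.9% of all genes did, and 0 fell; Dnajb9 (1.05) led. For ATF4 targets and these together, the 8 rises became 5 after quantile normalization. The NRF2 target Nqo1 was at 75.7, 154 and 139 in KO/Kd cells, against 541, 480 and 443 in Kd cells (-1.90), while the glutathione transferase gene Gsta4 rose by 2.58. Both were lower in +/+ cells with tamoxifen than in control (-2.26 and -3.41).

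Among chemokines, Cxcl1 (-2.58) and Ccl2 (-1.98) fell beside Cxcl3, and Cxcl14 (3.23) and Cxcl12 (1.90) rose. The list had 8 higher and 7 lower of 22, and immediate early genes 9 higher and 3 lower of 19, shares of rises near the 42.9% of all genes. The immediate early genes that fell were Fosl1 (-1.21), Myc (-1.12) and Nr4a2 (-0.54). In KO cells 12 immediate early genes were higher and 0 lower, where 19.5% and 4.64% of all genes were. In +/+ cells with tamoxifen 10 were higher and 1 lower, where 21.5% and 6.93% were.

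Of 33 subunits of HDAC1/2 complexes 16 rose and 4 fell (median 0.21), near the 42.9% and 20.4% of all genes, but after quantile normalization 10 rose and 13 fell. On the deposited scale the falls were those of Chd3 (-1.22), a NuRD helicase gene, Mbd3 (-0.59), Brms1 (-0.56) and Sap30 (-0.47). Arid4a (1.03) of the Sin3 complex was the largest rise. Outside class I, Hdac11 (1.75) and the tubulin deacetylase gene Hdac6 (1.48) rose, against 0.39 and 0.01 in KO cells. Among 10 linker and variant histone genes, H2ax (-1.17), Macroh2a1 (-1.01), H2az1 (-0.87), Macroh2a2 (-0.69) and H1f10 (-0.56) fell and H3f3b (1.26) and H1f2 (0.62) rose.

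Fibroblast identity was checked with markers. The summed intensity of 9 fibroblast markers was 166900 to 176200 on KO/Kd arrays, against 162500 to 168200 on Kd arrays. Of these 6 were higher and 2 lower, and single markers ranged from -3.96 (S100a4) to 3.67 (Dcn). Of all genes 42.9% were higher and 20.4% lower, which holds beside the other marker counts too. Sums for macrophage markers were 423 to 600 on KO/Kd and 419 to 468 on Kd arrays, with 5 of 10, Ptprc and C1qa among them, at or under the 40th percentile of all 6 arrays. Endothelial markers summed to 212 to 242 on KO/Kd and 136 to 144 on Kd arrays, with 7 of 10, Pecam1, Cdh5 and Vwf among them, at or under that percentile. Pericyte and smooth muscle markers were at 58950 to 62890 on KO/Kd and 47050 to 48550 on Kd arrays, adipocyte markers at 2308 to 2871 and 1264 to 1414 (2 higher and 2 lower of 5 tested, with Lpl at 4.61 and Pparg at -0.58, named after their values were seen), and chondrocyte markers at 11830 to 14530 and 6851 to 7131. Epithelial markers summed to 392 to 458 on KO/Kd and 659 to 768 on Kd arrays, and skeletal muscle markers to 564 to 763 and 1600 to 1693, where Acta1 alone fell and the other 5 tested rose. Neural markers summed to 3334 to 3475 on KO/Kd and 2688 to 2883 on Kd arrays, with 1 higher and 1 lower of 6 tested. Erythroid markers were at 145 to 167 on KO/Kd and 108 to 126 on Kd arrays, with 2 higher and 0 lower of 4 tested. In bulk RNA a change in the number of cells of a type and in RNA per cell cannot be told apart. The part of cell makeup in the results was not tested.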

How the data were processed

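Linear intensities of 45037 probe sets on 15 Affymetrix Mouse 430v2 arrays were deposited; the sources used here do not say how the authors summarised and scaled them. The platform annotation and a RefSeq gene table gave 1 symbol to 34945 probe sets, which alone were used, several to 932 and none to 9160. Fold changes are differences of log2(intensity + 16), so those of dim genes are understated. Probe sets above the 40th percentile of 3 or more arrays were kept, each gene being represented by its brightest one on average, leaving 13382 of 18193 genes. limma 3.58.1 (R 4.3.3) used all arrays in a model of group means, with Benjamini-Hochberg adjustment and a threshold of 0.05; errors after ± are its standard errors. The number of arrays limits precision: the median standard error was 0.0867, and 0.123 for the interaction. The procedure was tested on simulated data. Members and the 33 gene lists were chosen with earlier results of these data known. Genes were named by a rule: class I deacetylases, cell cycle regulators, the 15 highest and 15 lowest genes, the 8 highest and 8 lowest of the interaction, the neighbours of Hdac1, and up to 5 changed and 2 unchanged members per list role; not all are printed, and members of small counts were added after their values were seen. Lists carry no set test. Alternatives were other eBayes settings, the replicate block, filters, probe set rules, scalings, array weights, a pseudocount of 1 and each array left out.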

Additional observations from a re-analysis of the deposited data

Results flagged for a closer look

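The effect of Hdac1 deletion with tamoxifen was tested for a difference between knockdown and scrambled cells, and 5738 genes passed (limma, adjusted p under the threshold). Among the 199 genes named here 160 passed, 83 with a higher and 77 with a lower value in the knockdown cells. Each value below is the log2 fold change of KO/Kd minus Kd less that of KO minus control. These genes were named with their values known, and the interaction rests on the deposited scale of the arrays.

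Mitotic genes fell further on deletion in knockdown cells, with Plk1 (-2.28), Aurka (-2.44), Ttk (-2.15), Ska1 (-2.32), Spc24 (-1.98), Cdca8 (-2.31), Hmmr (-2.36), Ncapg (-2.51), Foxm1 (-2.11), Mki67 (-1.76) and Ccna2 (-1.56), against Pttg1 (0.39). Replication and repair genes gave Mcm5 (-1.90), Mcm10 (-2.32), Tk1 (-2.10), Cdc45 (-2.13), Pole (-1.79), Clspn (-2.14), Cdc6 (-2.22), Fancb (-2.48), Rad54l (-2.17) and Chek1 (-1.93), against Trp53bp1 (0.56). The proliferation-linked genes outside these lists gave Lrr1 (-2.75), Cdca2 (-2.60) and Pimreg (-2.52).

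Cell cycle inhibitor genes had positive differences, with Cdkn1a (0.62), Cdkn1b (0.42), Cdkn1c (3.30), Cdkn2b (1.99), Cdkn2d (0.61) and Cdkn2c (0.59). For Cdkn2c the values were -0.18 in KO/Kd cells, which did not pass, and -0.77 in KO cells. G1 genes gave Ccnd3 (0.84) and Ccne2 (-1.92), pocket proteins Rb1 (1.03), Rbl2 (1.47) and Rbl1 (-2.50), and E2F factors and partners E2f1 (-0.45), E2f4 (-0.45), E2f7 (-1.90), E2f8 (-1.70), Tfdp1 (-0.48) and Tfdp2 (1.06). Among p53 targets the differences were Mdm2 (0.97), Pmaip1 (0.99), Perp (1.88), Trp53inp1 (0.92), Eda2r (0.67), Fas (1.36), Zmat3 (1.15) and Gtse1 (-0.68).

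Genes with large rises in KO/Kd cells gave the most positive differences, among them Bex1 (7.91), Igf2 (7.80), Mgst1 (6.24), Itih5 (5.54), Gpx3 (5.49), Bex2 (5.40), Clca3a2 (5.33), Col14a1 (5.25), Prss12 (4.78), Rgcc (4.78), Cox6b2 (4.62), Gprasp2 (4.49), Syt17 (4.29), Notch3 (4.02) and Gas6 (3.44), with Bex4 (2.07) and Bex3 (0.83). Growth factor and imprinted genes gave Igf1 (4.04), Igf2r (1.24), Igf1r (0.78), Insr (0.97), Igfbp5 (2.04), Igfbp4 (1.32), Igfbp6 (-1.08), Dcn (3.21), Dlk1 (3.33), Peg3 (2.77) and Sgce (-0.37). Without shared probe sets Igfbp5 stood at 0.16 (adjusted p = 0.268) and Dlk1 at 0.81.

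At the other end were S100a4 (-4.18), Cxcl3 (-3.10), Acta1 (-3.08), Styk1 (-2.90), Ifi202b (-2.83), Lmcd1 (-2.74), Rtl3 (-2.53), Mboat1 (-2.11) and Aspn (-1.81). Other chemokines gave Ccl2 (-2.16), Cxcl1 (-1.08), Cxcl14 (2.88) and Cxcl12 (1.66). Cxcl3 and Lmcd1 were high in Kd cells alone, so their differences come with a higher level in the ethanol-treated knockdown cells.

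Lysosome genes gave Neu1 (1.96), Ctsf (2.15), Ctsd (0.94), Gaa (1.59), Gabarapl1 (1.13) and Map1lc3b (0.60). Antigen presentation and interferon genes gave Psmb8 (3.29), Tap1 (2.51), H2-D1 (1.98), H2-K1 (2.05), Nlrc5 (1.82), Usp18 (1.99) and Bst2 (1.98), against Erap1 (-0.97), Gbp2 (-1.43), Ifit2 (-0.59) and Ifih1 (-0.93). Matrix genes gave Mfap2 (2.55), Acan (3.76), Omd (-1.40), Prelp (-0.49) and Col6a2 (-0.40). Cholesterol genes gave Lss (-2.47), Idi1 (-1.63), Fdft1 (-1.37), Tm7sf2 (-0.54) and Scap (0.83), amino acid response genes Trib3 (-1.74), Slc7a11 (-1.72), Shmt2 (-1.03) and Asns (-0.99), and the unfolded protein response gene Dnajb9 (0.48). The adipocyte marker gene Lpl gave 4.45, and redox genes gave Nqo1 (-2.47) and Gsta4 (1.66).

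Early genes gave Fosl1 (-1.75), Myc (-1.17) and Nr4a2 (-0.53). Chromatin genes gave Chd3 (-0.73), Arid4a (0.46), Hdac3 (0.26), Hdac6 (1.47), Hdac11 (1.36), H2ax (-0.66), Macroh2a1 (-0.73), H2az1 (-0.63) and Macroh2a2 (-0.42), and neighbours of Hdac1 Marcksl1 (0.60), Bsdc1 (0.50) and Tmem234 (-0.31). The calls of Arid4a, Tmem234, Hdac3 and Nr4a2 ended in 14, 13, 12 and 11 alternatives, those of Macroh2a2 and E2f4 in 3 and 2, and those of Cdkn1b, Map1b and Tm7sf2 in 1 each. Signalling genes gave Sfrp1 (4.25), Dkk2 (3.12), Wnt4 (1.72), Bmp4 (1.82), Grem1 (1.90), Hes1 (-1.05), Id1 (-0.65), Id2 (-0.49) and Id3 (-0.87), neuronal and germline genes Uchl1 (2.51), Map1b (-0.78), Brdt (1.46) and Tex15 (0.61), and HDAC-inhibitor-responsive genes Mt1 (1.46), Mt2 (1.80), Clu (2.71), Klf2 (-1.42) and Klf6 (-0.80). For 10 of the 160 genes both comparisons passed in opposite directions. They include Acan (2.16 in KO/Kd cells, -1.60 in KO cells), Dlk1 (2.88 and -0.45), Acta1 (-2.43 and 0.64), Fosl1 (-1.21 and 0.54) and Nqo1 (-1.90 and 0.56).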

How the results depend on the processing

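The split of directions depended on scaling, and the number of changed genes moved more with the filter and with array weights (9161 changed). Under quantile normalization 4368 genes were lower in KO/Kd than in Kd cells and under centring 4202, and 3458 genes had a lower interaction under quantile normalization, whereas the genes changed by 2-fold or more moved by less than 1.5 times under every alternative. Leaving out each array in turn gave 7811 to 8039 changed genes (5236 to 5556 higher, 2433 to 2788 lower) and 5199 to 5890 for the interaction (1957 to 2808 lower). Same-numbered KO/Kd and Kd arrays did not deviate together (correlations of -0.06, -0.06 and -0.01). Of the 3 KO/Kd arrays, 0 correlated best with their own number. For KO and control arrays the correlations were 0.01, 0.11 and -0.07. With 3 arrays per group such values cannot exclude a pairing by number. With the replicate block 8328 genes passed and 5513 for the interaction. Of 182 named genes past the threshold, averaging a gene's probe sets moved 33 by over 1.5 times and quantile normalization 17. Among values past the threshold in either setting, the sign changed for Col1a1 with averaged probe sets (0.0129) and for Grb10 under quantile normalization (-0.12, adjusted p = 0.0265), the cause being not tested; small values not past the threshold, such as those of Hdac2, Plk2, Tfe3, Ckap2, Orc4 and Atm, also crossed 0 in some alternatives. Small calls that ended with an alternative were those of Hdac3, Hdac8, Cdkn1b, Cdk2, Gtse1, Ifih1, Tm7sf2, Hsd17b7, Hes1 and Sycp3. A filter at the 60th percentile left 10049 genes (7342 changed), and no filter 18193 (9131 changed). Precision is limited by the 3 arrays of each group, and a gene that did not pass may still differ.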

Other observations

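Wnt, Notch and TGF-beta pathway genes also changed in KO/Kd cells, where 42.9% of all genes rose and 20.4% fell. In KO cells 19.5% of all genes were higher and 4.64% lower. In KO/Kd cells the Notch genes given below rose and fell no more often than all genes. Of 18 Wnt genes 15 rose and 1, Wif1 (-0.55; -0.83 with a pseudocount of 1), fell (median 1.00), against 2 and 2 in KO cells. The secreted Wnt inhibitor gene Sfrp1 was at 2448, 1472 and 2041 in KO/Kd cells, against 110, 101 and 86.5 in Kd cells (4.09), and the inhibitor gene Dkk2 (3.12) and the ligand gene Wnt4 (1.72) rose too. Sfrp1 was also 2.65 above control in +/+ cells with tamoxifen. Of 10 Notch genes 3 rose, led by Notch3, and 1, Hes1, fell (-0.38; -0.30 without Kd replicate 2, adjusted p = 0.0685). Of 23 genes of TGF-beta and BMP signalling 13 rose and 3 fell (6 after quantile normalization), the falls being the target genes Id3 (-0.80), Id2 (-0.58) and Id1 (-0.52), while the ligand gene Bmp4 (2.47) and its antagonist gene Grem1 (2.72) rose.

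Neuronal and germline genes, often silent in fibroblasts, were tested where they passed the filter on dim probe sets. Of 26 neuronal genes 19 rose and 2 fell (median 0.49), where 42.9% and 20.4% of all genes did. In KO cells 2 rose and 2 fell, where 19.5% and 4.64% of all genes did. The ubiquitin hydrolase gene Uchl1 was at 1504, 1646 and 1521 in KO/Kd cells, against 112, 97.0 and 117 in Kd cells (3.66). The falls were those of the microtubule genes Map1b (-0.75) and Map2 (-0.26). Of 8 germline genes 4 rose, namely Cox6b2, the testis bromodomain gene Brdt (1.52), Tex15 (0.79; 1.36 with a pseudocount of 1) and Sycp3 (0.26; 0.13 after quantile normalization, adjusted p = 0.141). This share of germline genes was near the 42.9% of all genes. Only 8 of the 20 germline genes on the array passed the filter. A gene that passed through its level in KO/Kd cells had to differ, so these counts do not describe all members. Of 14 genes reported to respond to HDAC inhibitors 9 rose and 2 fell, where 42.9% and 20.4% of all genes did. The falls were those of Klf2 (-1.02) and Klf6 (-0.44). The metallothionein genes Mt2 (2.41) and Mt1 (2.16) and Clu (2.89) were among the rises. Without probe sets marked as shared between transcripts, Mt1 was at 1.31 and Clu at 1.43. Of the same 14 genes 8 were higher and 1 lower in KO cells, where 19.5% and 4.64% of all genes were. In +/+ cells with tamoxifen 8 were higher and 2 lower, where 21.5% and 6.93% were.

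Other gene groups moved less or in both directions. Of 20 contractile and SRF target genes 16 rose and 0 fell (median 0.33), where 42.9% and 20.4% of all genes did, but 10 rose and 3 fell after quantile normalization. In KO cells 12 rose and 0 fell, where 19.5% and 4.64% of all genes did. Matrix proteases and their inhibitors had 9 higher and 3 lower of 17, NRF2 and glutathione genes 12 and 6 of 21, apoptosis regulators 7 and 6 of 22, deacetylases outside class I 5 and 4 of 13, and histone acetyltransferases 3 and 5 of 11. After quantile normalization 7 NRF2 and glutathione genes were higher and 8 lower, and 5 and 8 apoptosis regulators.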
